A study of Mus musculus with 16 samples.

Results

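The 9 genes Acat2, Hmgcs1, Mvk, Pmvk, Mvd, Idi1, Fdps, Fdft1 and Ggps1 encode the enzymes that carry acetyl-CoA through mevalonate and the isoprenyl diphosphates to squalene and geranylgeranyl diphosphate. They were chosen by gene symbol and not by a threshold on values. Earlier results of these data were known when they and the pathway lists below were chosen. Counts of calls beside the share of all tested genes therefore describe these genes and do not test them as a set. All 9 were found among the 78317 genes of the deposited tables and among the 14781 genes with enough reads to test. Poly(A) RNA of homogenized liver was sequenced from 16 wild-type C57BL/6J mice. The mice arrived at 6 weeks of age and spent 10 weeks on normal chow, in which fat gave 4.5% of the calories, or on a high fat diet, in which fat gave 60%. This gave 4 groups of 4 libraries each: females on normal diet, females on high fat diet, males on normal diet and males on high fat diet. Because different makers supplied the diets, fat may not be all that differed. The mice were group-housed, and the hour of tissue collection is not given in the sources used here.

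Cholesterol synthesis starts in the cytosol with 2 molecules of acetyl-CoA. Acat2, the cytosolic acetoacetyl-CoA thiolase (not the sterol acyltransferase that once bore the same name), joins them, and Hmgcs1, the cytosolic HMG-CoA synthase, adds a further acetyl group. Once mevalonate has been made from this product, Mvk and Pmvk phosphorylate it and Mvd removes its carboxyl group to give isopentenyl diphosphate. Idi1 converts isopentenyl diphosphate to its isomer dimethylallyl diphosphate, and Fdps condenses these units into farnesyl diphosphate. Here the route forks. Fdft1, squalene synthase, commits farnesyl diphosphate to sterols, whereas Ggps1 lengthens it to geranylgeranyl diphosphate, which is attached to small GTPases. The liver is a main site of this pathway, and many of its genes are known targets of SREBP2, a transcription factor that is released from the endoplasmic reticulum when sterols are scarce.

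SREBP2 binds sterol regulatory elements, and on known target promoters it works beside NF-Y, which reads CCAAT, and Sp1, which reads the GC box GGGCGG. Promoter windows of the RefSeq annotation (build GRCm38.p6, from 250 bases before to 50 bases after the annotated start) were matched for 7 of the 9 genes; Fdps and Fdft1 had no entry. Both strands were searched for TCACCCCAC, a core form of the sterol regulatory element, for the looser TCACNCCAC, which contains it, for CCAAT and for GGGCGG. The 4 windows printed here bring together the only member with a match to the element core, the gene with the largest fold change, the member with the most CCAAT boxes and the member whose RNA moved least. They run 5′ to 3′ on the strand of the gene, and capitals mark the matches on either strand.
Hmgcs1, chr13:119690101-119690400, plus strand: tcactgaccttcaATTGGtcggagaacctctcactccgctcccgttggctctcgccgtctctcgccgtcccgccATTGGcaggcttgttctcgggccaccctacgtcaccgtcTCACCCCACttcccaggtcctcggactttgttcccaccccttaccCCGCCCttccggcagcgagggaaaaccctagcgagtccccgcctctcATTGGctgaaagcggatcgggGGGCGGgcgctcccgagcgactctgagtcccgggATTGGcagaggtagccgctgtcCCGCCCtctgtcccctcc
Idi1, chr13:8885356-8885655, plus strand: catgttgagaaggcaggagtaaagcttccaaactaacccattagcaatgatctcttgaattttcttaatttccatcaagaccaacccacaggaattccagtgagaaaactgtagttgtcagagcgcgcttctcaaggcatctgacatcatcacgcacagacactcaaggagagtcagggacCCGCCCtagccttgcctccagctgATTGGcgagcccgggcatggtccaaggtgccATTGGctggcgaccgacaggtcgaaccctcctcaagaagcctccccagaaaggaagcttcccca
Mvk, chr5:114444019-114444318, plus strand: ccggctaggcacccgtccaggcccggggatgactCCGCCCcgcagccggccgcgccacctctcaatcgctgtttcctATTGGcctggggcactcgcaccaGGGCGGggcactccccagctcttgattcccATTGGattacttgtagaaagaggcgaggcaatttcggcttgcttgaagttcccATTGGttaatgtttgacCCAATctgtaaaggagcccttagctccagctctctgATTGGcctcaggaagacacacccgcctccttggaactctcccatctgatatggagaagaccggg
Ggps1, chr13:14063439-14063738, minus strand: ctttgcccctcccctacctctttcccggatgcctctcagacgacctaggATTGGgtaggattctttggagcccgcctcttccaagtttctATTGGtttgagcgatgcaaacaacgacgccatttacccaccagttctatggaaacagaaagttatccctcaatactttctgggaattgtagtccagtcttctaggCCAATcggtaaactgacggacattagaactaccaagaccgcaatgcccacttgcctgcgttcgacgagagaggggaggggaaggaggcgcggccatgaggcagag

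TCACCCCAC stood in the Hmgcs1 window alone of the 7 members, as in 0.614% of the 27025 genes with a window. The looser form, present in 1.44% of these genes, added no further member. CCAAT stood in 6 of the 7 members and in 41.1% of all genes with a window. Mvk held 5 copies, Hmgcs1 4, Ggps1 3, Mvd and Idi1 2 each and Pmvk 1, and Acat2 held none. GGGCGG stood in 5 of the 7 members and in 38.2% of all genes with a window, with 3 copies in Hmgcs1, 2 in Mvk and 1 each in Acat2, Mvd and Idi1. Ggps1 and Pmvk therefore both held CCAAT but no match to the other motifs. A match is a run of letters and not a measured binding site, and these windows cover only the bases next to the start.

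Library totals ran from 22228115 to 41420589 estimated counts. Counts of male high fat replicates 2 and 3 differed by a chi-square per gene of 4.07, against at least 20.9 in every other pair within a group. This is more than sampling noise, so both were kept, but it does not show that they came from separate mice. Members' calls that change when they are averaged are given with that value. Markers of hepatocytes summed to 80310 to 93830 TPM, the length-scaled transcript level of RSEM, in females on normal diet, 78650 to 92010 in females on high fat diet, 68560 to 76400 in males on normal diet and 54020 to 69240 in males on high fat diet. All 41 markers of the 9 cell types listed were found, and none was at 0 in every library. On high fat diet in females, the summed TPM of 5 Kupffer cell markers (138.8 to 193.6 on normal diet, 255.7 to 416.1 on high fat diet), of 5 stellate cell markers (98.8 to 112.7 and 115.3 to 128.6) and of 4 pancreatic acinar markers (21.0 to 32.1 and 32.3 to 46.4) lay above the normal range. Of the 4 acinar markers, only 1 had enough reads to test. In males no list separated the diets. Females lay above males on each diet for hepatocyte markers, for 4 T and B cell markers (2.03 to 3.20 and 2.66 to 6.25 in females, 0.46 to 1.41 and 1.20 to 2.54 in males), for stellate markers (62.9 to 70.2 and 69.9 to 83.7 in males) and for endothelial markers (65.2 to 80.8 and 76.9 to 91.7 in females, 48.0 to 53.9 and 52.6 to 61.7 in males). Kupffer cell markers overlapped between the sexes on normal diet (116.3 to 210.7 in males) and lay higher in females on high fat diet (112.7 to 246.0 in males). The part of these markers in the results was not tested, and in whole liver fewer cells of a type and less RNA per cell cannot be told apart.

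Per unit of transcript length, the 9 RNAs spanned a wide range of levels. In females on normal diet Idi1 was at 251 ± 78.0 TPM (SD, n = 4), Fdps at 198 ± 65.7 and Hmgcs1 at 155 ± 54, and the ranges of these 3 overlapped. Fdft1 (69.4 ± 15.4 TPM), Acat2 (58.3 ± 8.92) and Pmvk (44.8 ± 11.2) formed a middle tier that lay below Hmgcs1 without overlap. Below them stood Mvk at 12.8 ± 1.73, Mvd at 7.30 ± 2.42 and Ggps1 at 3.65 ± 0.1998 TPM, each separate from the next. Mvk and Mvd thus had the lowest levels on the way to squalene, and the lowest level of all was that of the geranylgeranyl branch.

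**Figure D1:**
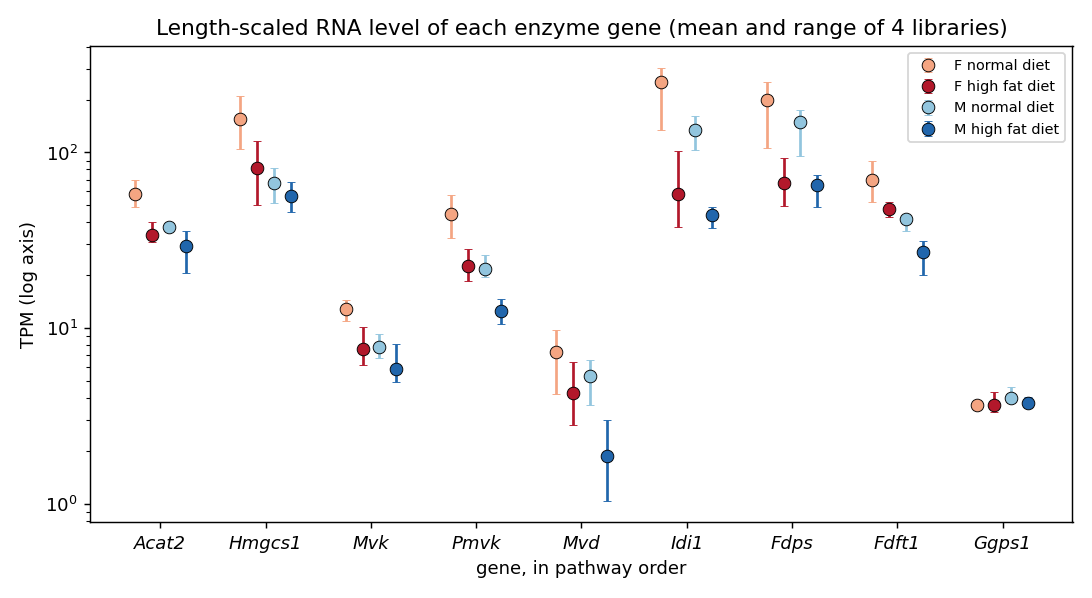
TPM of the 9 genes in pathway order on a log axis, with points at the mean and bars from the lowest to the highest of 4 libraries in each of the 4 groups. In all genes but Ggps1 the female normal diet point is the highest of the 4, and the Ggps1 points lie between 3.65 and 3.97 TPM.

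The order of levels shifted with diet. In females on high fat diet Hmgcs1 led with 81.7 ± 31.5 TPM, followed by Fdps (67.0 ± 19.5) and Idi1 (58.0 ± 29.7), and these neighbours overlapped. Mvd at 4.25 ± 1.54 TPM overlapped Ggps1 at 3.66 ± 0.460. In males on normal diet Fdps (149 ± 36.8) and Idi1 (134 ± 23.8) overlapped each other and lay above Hmgcs1 (66.9 ± 14.4). In males on high fat diet Fdps (65.0 ± 11.8), Hmgcs1 (56.6 ± 11.8) and Idi1 (44.3 ± 5.26) were close. There Mvd, at 1.87 ± 0.838 TPM, had fallen below Ggps1 (3.74 ± 0.199) without overlap, and so was the lowest of the 9. Summed over the 9 genes, the level was 800.4 ± 216.7 TPM in females on normal diet (497.6 to 1011 in single libraries) and 326.7 ± 85.5 on high fat diet (272.0 to 451.9). In males it was 468.3 ± 74.7 (357.4 to 515.4) and 246.2 ± 38.6 (199.9 to 281.2). The ranges of the diets did not overlap in either sex, and Idi1, Fdps and Hmgcs1 made up most of each sum.

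The high fat diet was compared with normal diet within females first. Of the 9 genes, 8 (all but Ggps1) fell, against 5.76% of all tested genes that fell in this comparison, by edgeR's quasi-likelihood test at a Benjamini-Hochberg adjusted p under 0.05. The median log2 fold change of the 9 was -1.01, against 0.00 over all genes tested. In 8 of the 9, all but Mvd, every high fat library lay below every normal diet library, which held for 9.55% of all tested genes. The values that follow are CPM, counts relative to library size after TMM scaling, which compare libraries and not genes. Single values stand in the order of replicates 1 to 4.

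The entry steps fell to about the same degree. Acat2 read 108, 89.2, 111 and 95.1 CPM on normal diet and 45.5, 45.1, 62.0 and 48.2 on high fat diet. The groups lay well apart, with means of 101 ± 10.3 and 50.2 ± 7.99 (SD, n = 4), and the log2 fold change was -1.01 ± 0.16 (SE, edgeR adjusted p = 0.000803). Hmgcs1 read 331, 307, 529 and 522 CPM on normal diet and 119.7, 229, 285 and 133 on high fat diet. Its libraries spread more widely: replicates 3 and 4 were high on normal diet, replicates 2 and 3 were high on high fat diet, and the highest of the latter (285.3 CPM) came close to the lowest of the former (306.7). Its log2 fold change was -1.14 ± 0.28 (edgeR adjusted p = 0.0156), and the adjusted p rose to 0.0611 with no filter on low counts, to 0.0528 without female high fat replicate 4 and to 0.0514 without female normal diet replicate 4.

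The 3 steps from mevalonate to isopentenyl diphosphate are carried by Mvk, Pmvk and Mvd, and their fitted log2 fold changes lay between -1.21 and -0.97. Mvk, mevalonate kinase, had 11.7 to 14.9 CPM on normal diet and 5.29 to 9.35 on high fat diet, a log2 fold change of -0.97 ± 0.18 (edgeR adjusted p = 0.00293). Pmvk, phosphomevalonate kinase, read 41.9, 27.2, 41.6 and 30.7 CPM on normal diet and 14.98, 12.4, 19.9 and 13.6 on high fat diet. Replicate 3 was the highest of its high fat group and still lay below the lowest normal diet library, and the log2 fold change of -1.21 ± 0.18 had the smallest adjusted p of the 9 in females (0.000350, edgeR). Mvd, diphosphomevalonate decarboxylase, read 9.16, 5.76, 10.2 and 12.5 CPM on normal diet and 4.50, 3.04, 7.37 and 3.92 on high fat diet. Here the groups overlapped, because normal diet replicate 2 was below high fat replicate 3. The log2 fold change of -1.0 ± 0.32 sat at the threshold (edgeR adjusted p = 0.0499) and missed it in 15 of 25 other ways of processing, with adjusted p values of up to 0.148 when single female libraries were left out and 0.151 with no filter on low counts.

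Idi1 and Fdps had the largest falls of the 9 in females. Idi1, the isomerase, read 610.4, 289.7, 568 and 559.8 CPM on normal diet and 70.2, 89.8, 183 and 61.6 on high fat diet. Replicate 2 of the normal diet was far below its 3 group mates, and replicate 3 of the high fat diet was far above its own, yet the groups stayed apart. Idi1 fell 5.02-fold, a log2 fold change of -2.33 ± 0.32 (edgeR adjusted p = 0.000364), and ranked 37th among the falls of all tested genes. Fdps, farnesyl diphosphate synthase, read 212, 94.5, 197 and 167 CPM on normal diet and 50.5, 35.6, 70.7 and 38.1 on high fat diet. The same libraries stood out as for Idi1. Its log2 fold change was -1.78 ± 0.28, a 3.44-fold fall that ranked 90th (edgeR adjusted p = 0.00129). Fdft1, squalene synthase, read 165, 128, 191 and 161 CPM on normal diet and 85.6, 91.2, 109 and 94.0 on high fat diet. Its groups did not overlap, but the fall of 1.70-fold (log2 fold change -0.76 ± 0.15, edgeR adjusted p = 0.00356) was the smallest of the 8 that passed. On the log2(TPM + 1) scale, where the median of all genes moved by 0.15, the Fdft1 value was -0.5 (limma adjusted p = 0.0293).

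**Figure D2:**
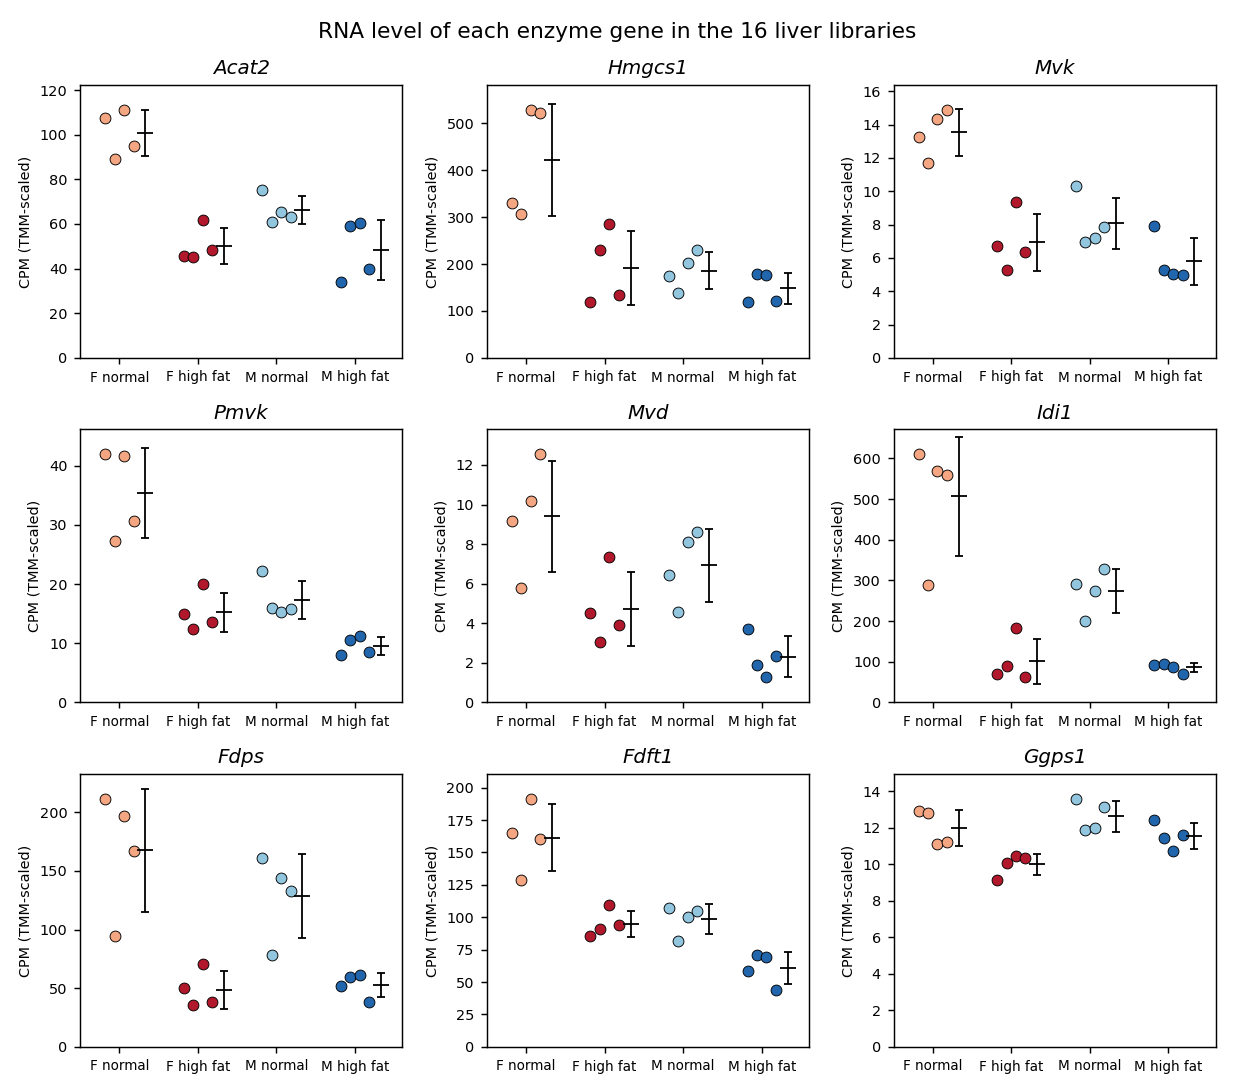
TMM-scaled CPM of the 9 genes, one panel each with an axis from 0, with a point for each of the 4 libraries in a group and, beside them, the mean with a bar of 1 SD. In 8 panels every female high fat point is below every female normal diet point, and in the Mvd panel 1 point of each group crosses over.

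In males 5 of the 9 genes fell on high fat diet, against 5.36% of all tested genes: Pmvk, Mvd, Idi1, Fdps and Fdft1. The median log2 fold change of the 9 was -0.70, against 0.01 over all genes. These 5 also fell in females, and a fall in both sexes was called for 1.78% of all tested genes. In 6 of the 9, the 5 called genes and Acat2, the male diet groups did not overlap, as in 9.13% of all tested genes.

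The first 3 members of the route were not called in males. Acat2 read 75.1, 60.7, 65.2 and 63.3 CPM on normal diet and 33.9, 59.2, 60.2 and 39.9 on high fat diet. High fat replicates 2 and 3 lay just under the normal diet range while replicates 1 and 4 were much lower. The log2 fold change was -0.45 ± 0.16 (edgeR adjusted p = 0.0787), and with the closely alike replicates 2 and 3 averaged into 1 library it was -0.57 (edgeR adjusted p = 0.0426). Hmgcs1 read 174, 138, 202 and 229.7 CPM on normal diet and 119.5, 179, 176 and 121 on high fat diet. The groups overlapped, and the 95% confidence interval of the log2 fold change, -0.90 to 0.26, includes both no change and falls of the size seen for Pmvk and Fdft1 (edgeR adjusted p = 0.490). Mvk read 10.3, 6.94, 7.22 and 7.88 CPM on normal diet and 7.92, 5.30, 5.05 and 4.96 on high fat diet. Only high fat replicate 1 reached into the normal diet range. Its log2 fold change was -0.47 ± 0.19 with it (edgeR adjusted p = 0.108) and -0.67 without it (edgeR adjusted p = 0.0238).

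From Pmvk onwards each male step to squalene fell. Pmvk read 22.2, 15.98, 15.3 and 15.7 CPM on normal diet and 7.99, 10.5, 11.2 and 8.46 on high fat diet, a log2 fold change of -0.85 ± 0.18 (edgeR adjusted p = 0.00532). Mvd read 6.42, 4.57, 8.12 and 8.64 CPM and 3.72, 1.87, 1.31 and 2.35 CPM. All 4 high fat libraries lay below the normal diet range, and at 3.01-fold (log2 fold change -1.59 ± 0.33, edgeR adjusted p = 0.00591) the fall was close to that of Idi1. The male high fat libraries held only 38 to 100 reads of Mvd each. Idi1 read 292, 201, 274 and 329 CPM on normal diet and 92.01, 94.7, 88 and 68.8 on high fat diet. Its high fat libraries were tightly grouped, and the fall was 3.19-fold (log2 fold change -1.67 ± 0.31, edgeR adjusted p = 0.00313), rank 95 among all genes. Fdps read 161, 78.3, 144 and 133 CPM and 52.0, 59.9, 61.3 and 38.5 CPM, with normal diet replicate 2 again the lowest of its group, and its log2 fold change was -1.28 ± 0.28 (edgeR adjusted p = 0.00888). Fdft1 read 107, 81.6, 100.4 and 105 CPM and 58.6, 70.8, 69.0 and 43.7 CPM, and its log2 fold change of -0.70 ± 0.15 (edgeR adjusted p = 0.00583) was close to the female value.

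**Figure D3:**
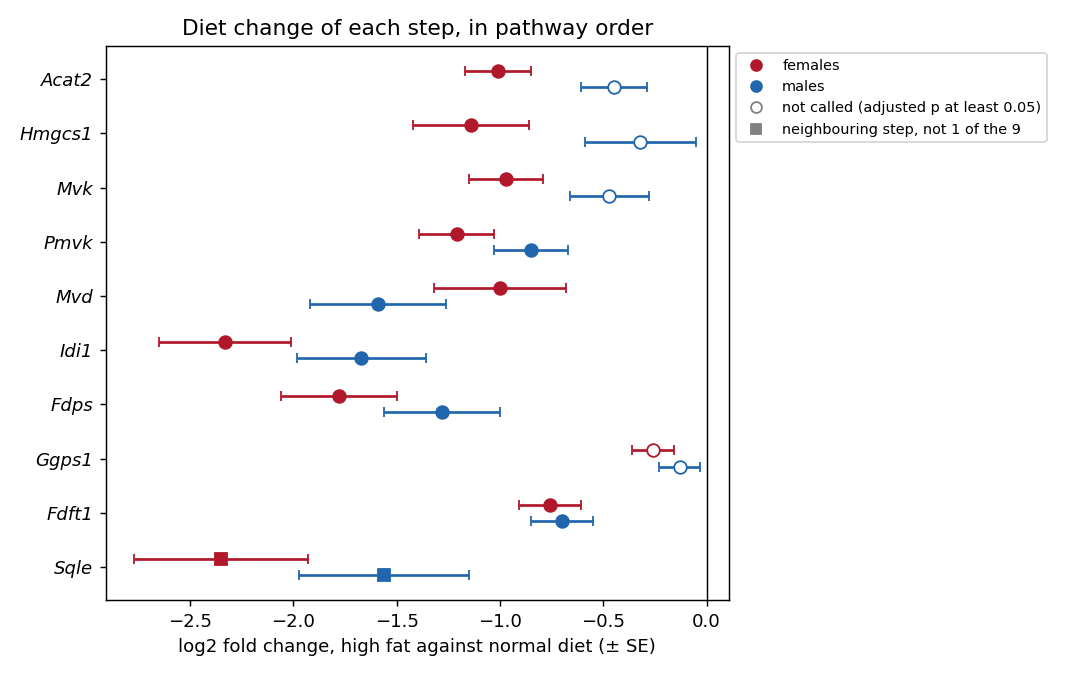
Log2 fold change of high fat against normal diet (± SE) for each step from top to bottom in pathway order, in females and males, with the next step, Sqle, as squares and open symbols for changes that were not called. Idi1 shows the largest change of the 9 in both sexes (-2.33 and -1.67), and Ggps1 the smallest (-0.26 and -0.13).

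Whether the diet change differed between the sexes was tested with the interaction term. None of the 9 genes passed, against 0.677% of all tested genes. The edgeR adjusted p ran from 0.307 to 0.932, 1 gene (Acat2) had an unadjusted p under 0.05, and DESeq2 also called none. The female change was the more negative in 8 of the 9, and the median difference, females minus males, was -0.50 on the log2 scale. The intervals were wide. For Hmgcs1 the difference was -0.82 (95% confidence interval -1.64 to 0.00), for Acat2 -0.56 (-1.03 to -0.08) and for Idi1 -0.65 (-1.56 to 0.26). Mvd, the exception in sign, had 0.59 (-0.38 to 1.55). For Fdft1 the difference was -0.06 (-0.51 to 0.38), and it turned to 0.11 on the log2(TPM + 1) scale. A call in females and none in males for Acat2, Hmgcs1 and Mvk is therefore not shown to be a difference between the sexes.

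The sexes were then compared on the same diet, with the libraries already used above. On normal diet 5 of the 9 genes, Acat2, Hmgcs1, Mvk, Pmvk and Fdft1, were higher in females, against 7.03% of all tested genes, and in the same 5 the groups did not overlap, as in 9.86% of all tested genes. The median of the 9 was 0.71 against 0.00 over all genes. Hmgcs1 had the largest difference, 1.19 ± 0.28 on the log2 scale (edgeR adjusted p = 0.00933), with every female normal diet library at or above 306.7 CPM and no male one above 229.7. Pmvk followed with 1.03 ± 0.18 (edgeR adjusted p = 0.000846), then Mvk with 0.75, Fdft1 with 0.71 and Acat2 with 0.61. Idi1, at 0.89 ± 0.30, missed the threshold (edgeR adjusted p = 0.0591). Female replicate 2 fell within the male range, and without that library the difference was 1.09 (edgeR adjusted p = 0.0279). Idi1 was also called by the DESeq2 Wald test (adjusted p = 0.0125), with only the groups compared (edgeR adjusted p = 0.0221) and without female high fat replicate 3 (0.00888) or 4 (0.0429). Of the 25 alternatives to the main processing, 20 left Idi1 uncalled. Mvd, Fdps and Ggps1 were not called. On this diet Fdps, one of the genes that moved most with diet, read 94.5 to 212 CPM in females and 78.3 to 161 in males, ranges that overlapped for most of their length.

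On high fat diet 3 of the 9 genes were higher in females, against 8.84% of all tested genes. Pmvk differed by 0.67 ± 0.18 (edgeR adjusted p = 0.0145) and Fdft1 by 0.65 ± 0.15 (edgeR adjusted p = 0.00601). In both, females lay above males without overlap, as in 10.3% of all tested genes. Mvd differed by 1.03 ± 0.34 (edgeR adjusted p = 0.0390), but its groups overlapped. The Mvd call was lost in 9 of 25 other ways of processing. Among these, the value was 0.75 without female high fat replicate 3 (edgeR adjusted p = 0.114), 1.05 with no filter on low counts (adjusted p = 0.112) or with only the groups compared (adjusted p = 0.0673), and 0.90 with male high fat replicates 2 and 3 averaged (adjusted p = 0.0902). Idi1 (61.6 to 183 CPM in females, 68.8 to 94.7 in males) and Fdps (35.6 to 70.7 and 38.5 to 61.3) covered much the same range in both sexes. Ggps1 was the only member with the female libraries below the male ones without overlap, as in 12.4% of all tested genes, and its difference of -0.21 ± 0.10 was not called (edgeR adjusted p = 0.140).

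Ggps1, the geranylgeranyl branch, had the smallest fitted diet change of the 9 in each sex. It read 12.9, 12.8, 11.1 and 11.2 CPM in females on normal diet, 9.15, 10.1, 10.5 and 10.3 in females on high fat diet, 13.6, 11.9, 12.0 and 13.1 in males on normal diet and 12.5, 11.4, 10.7 and 11.6 in males on high fat diet. The female high fat libraries lay just below the normal diet ones, and the male diet groups overlapped. Its log2 fold change with diet was -0.26 ± 0.10 in females (95% confidence interval -0.47 to -0.06, edgeR adjusted p = 0.0887) and -0.13 ± 0.10 in males (-0.34 to 0.08, edgeR adjusted p = 0.422). Per length the female groups did not separate, at 3.65 ± 0.1998 and 3.66 ± 0.460 TPM, a scale on which (as log2(TPM + 1)) the median of all tested genes was 0.15 higher on high fat diet. Falls as large as those fitted for the other 8 genes in females, 1.70-fold or more, lie outside its interval.

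Since Fdft1 and Ggps1 draw on the same substrate, farnesyl diphosphate, the ratio of their TPM within each library was compared. In females the ratio of Fdft1 to Ggps1 was 18.8, 14.1, 22.9 and 20.3 on normal diet and 12.8, 12.8, 15.7 and 11.5 on high fat diet. The ratio was lower on high fat diet, with normal diet replicate 2 inside the high fat range. On the log2 scale the means were 4.22 ± 0.30 and 3.71 ± 0.19 (SD, n = 4), a difference of -0.51 (exact two-sided permutation p = 0.0571). In males the ratio was 11.2, 9.56, 11.8 and 9.56 on normal diet and 6.53, 8.74, 8.31 and 5.46 on high fat diet, so the groups did not overlap. The log2 means were 3.39 ± 0.15 and 2.83 ± 0.32, a difference of -0.55 (exact two-sided permutation p = 0.0286, the smallest that 70 assignments allow). Adjusted over the 2 tests, p was 0.0571 in each sex, so neither passed 0.05. This ratio of RNA levels does not measure flux through either branch.

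The animals of a group also differed from each other, and most of the pathway varied together. After the group means were removed, the median Pearson r over the 36 pairs of members was 0.51 across the 16 libraries, from -0.17 for Acat2 and Mvd to 0.83 for Acat2 and Pmvk. The 28 pairs without Ggps1 had a median of 0.60, with 19 of them above 0.5, while the 8 pairs with Ggps1 had a median of -0.01. Idi1 and Fdps, consecutive steps, reached 0.82, and Fdps and Fdft1 0.81. Averaging male high fat replicates 2 and 3 gave medians of 0.63 and 0.05 without and with Ggps1. These are descriptions, since the genes of a library share its RNA and its scaling. Ggps1 (262 to 485 reads per library), Mvd (38 to 495) and Mvk (112 to 588) have few reads. Leaving out pairs with Ggps1, r ran from -0.17 to 0.75 for Mvd and from 0.07 to 0.75 for Mvk. The part of read depth was not tested.

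Single animals stood out for most of the 9 genes. Female high fat replicate 3 was the highest of its group for all 9 genes, on average by 0.49 above the group mean on the log2 scale. Female normal diet replicate 2 and male normal diet replicate 2 were each the lowest of their group for 8 of the 9 genes, by averages of 0.39 and 0.31 below the mean. No male high fat library was extreme in this way for more than 4 of the 9. Mvd varied most in that group, with replicate 1 high and replicate 3 low.

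**Figure D4:**
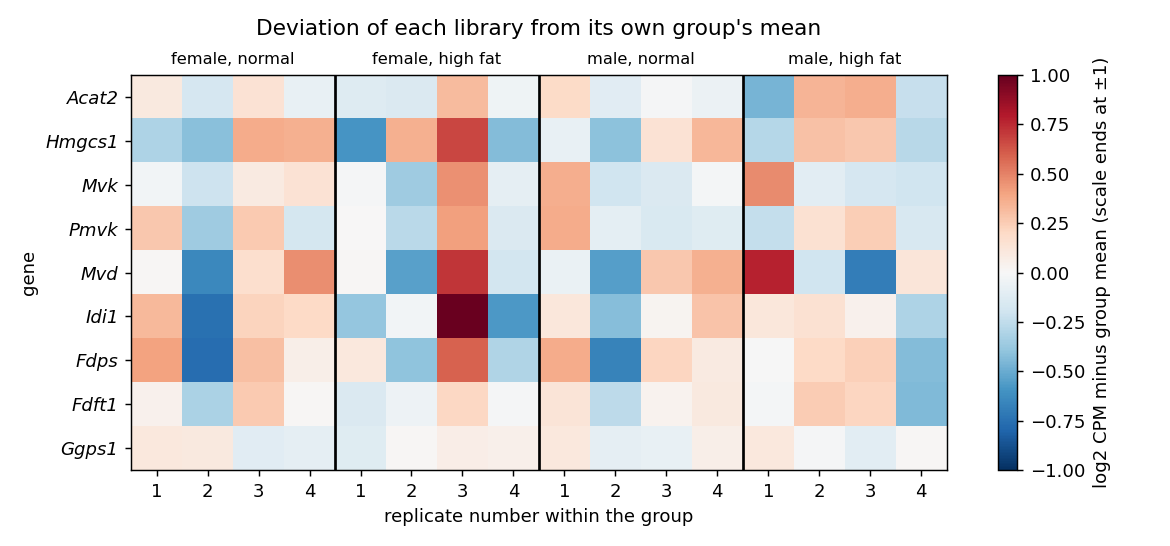
Log2 CPM of each of the 9 genes in each of the 16 libraries minus the mean of its own group, red above and blue below, with the colour scale ending at 1. Female high fat replicate 3 is red for all 9 genes, replicate 2 of both normal diet groups is blue for most, and the Ggps1 row is pale throughout.

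Genes whose level followed the 9 closely were sought among the 14772 other tested genes, by Pearson r with the mean standardized level of the 9 over the 16 libraries. Msmo1, a demethylase of later sterol synthesis, came first with r = 0.984, and among the closest were also the retinol dehydrogenase Rdh11 (0.955), lanosterol demethylase Cyp51 (0.950) and Tmem97 (0.949), which encodes a membrane protein also known as the sigma-2 receptor. Spearman's rho for these 4 ran from 0.894 for Tmem97 to 0.935 for Rdh11. These values hold the group differences as well as the animals. With the group means removed, r was 0.922 for Msmo1, 0.915 for Tmem97, 0.885 for Cyp51 and 0.831 for Rdh11.

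Some members share sequence with other genes, which bears on how RSEM divides reads. Of the 31-base stretches in the Acat2 transcripts (GENCODE M21), 43.7% also occur in Acat3, a near copy of the same thiolase. Acat3 stood at 161 to 218 CPM in females on normal diet and 245 to 313 on high fat diet, higher and without overlap, in the opposite direction to Acat2 (log2 fold change 0.46 ± 0.15, edgeR adjusted p = 0.0519). With the reads of Acat2 and Acat3 summed, the female diet change was 0.11 (edgeR adjusted p = 0.649) and the male one 0.12 (edgeR adjusted p = 0.635). The difference between the sexes on normal diet was then 0.32 and no longer called (edgeR adjusted p = 0.136). Acat3 makes up most of that sum, so the sum does not show whether Acat2 itself fell. How reads were divided between the pair was not tested, and the values of Acat2 are uncertain in this respect.

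Fdps shares 24.6% of its stretches with Gm43738, a gene model whose exons overlap it on the same strand, Idi1 18.4% with the gene model Gm13502, and Fdft1 17.6% with Ctsb, whose exons overlap it on the opposite strand. Hmgcs1 shares 10.9% with the antisense model Gm48342, Ggps1 8.08% with Gm5630, Mvk 1.42% with Lrrc3, and Pmvk and Mvd share none. Whether the counting used strand is not given in the sources used here, so reads of Fdft1 and Ctsb, and of Ggps1 and Arid4b, which also overlap on opposite strands, may not be fully told apart. Ctsb, a lysosomal protease, was not called with diet in females (log2 fold change 0.32 ± 0.12, edgeR adjusted p = 0.0963) or males (0.15 ± 0.12, adjusted p = 0.471). Arid4b, which encodes a chromatin protein, fell in males by 0.44 on the log2 scale (edgeR adjusted p = 0.0292) and was not called in females (-0.33, adjusted p = 0.0909).

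Acat1, the mitochondrial thiolase, had log2 fold changes with diet of 0.03 ± 0.16 in females and 0.45 ± 0.16 in males, and was not called in either sex (edgeR adjusted p = 0.935 and 0.0843). Idi2, the paralog of Idi1, had 0 counts in all 16 libraries. Mmab, a cobalamin enzyme whose gene lies next to Mvk, fell in females by 0.58 (edgeR adjusted p = 0.00657) and was not called in males (-0.08, adjusted p = 0.725). Tcp1, a chaperonin subunit gene next to Acat2, had -0.28 in females (edgeR adjusted p = 0.0524) and fell by 0.37 in males (edgeR adjusted p = 0.0128).

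The step after the members fell as well. Sqle, the epoxidase that acts on the product of Fdft1, fell from 87.2 ± 23.2 to 17.2 ± 9.58 CPM in females and from 55.6 ± 10.9 to 18.9 ± 10.9 in males, with log2 fold changes of -2.35 and -1.56 (edgeR adjusted p = 0.00400 and 0.0277). In both sexes the fitted change of Fdft1 was smaller than that of Fdps before it and of Sqle after it, a contrast between genes that was not tested.

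Of 12 genes that carry squalene to cholesterol, 10 fell in females, beside 5.76% of all tested genes, and 7 in males, beside 5.36%, and none rose in either sex. Their medians were -1.21 and -0.78. Dhcr7, the last reductase of one route, and Msmo1 had the smallest p in both sexes, with log2 fold changes of -1.2 and -1.73 in females and -0.66 and -1.22 in males (edgeR adjusted p of 5.70e-05, 8.18e-05, 0.00497 and 0.00114). DESeq2 called 11 of the 12 lower in males, where it called 15.2% of all tested genes in either direction. The sterol steps called after squalene moved in the direction of the members called before it.

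Regulators of the pathway were read beside its enzymes. Srebf2, which encodes SREBP2, fell by 0.42 in females (edgeR adjusted p = 0.0448) and was not called in males (-0.12, adjusted p = 0.582). Its female groups overlapped, at 26.7 to 41.1 CPM on normal diet and 21.9 to 27.3 on high fat diet. Insig1, a sterol-sensing retention protein and itself a known target of SREBP2, fell by 0.58 in females and fell by 1.65 in males (edgeR adjusted p = 0.00119 and 1.71e-08). That difference between the sexes passed its own test (1.07 ± 0.14, edgeR adjusted p = 0.00110).

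Users of farnesyl and geranylgeranyl units were called lower about as often as tested genes at large. Of 15 genes for prenyltransferases, dolichol, ubiquinone, haem A and related products, Rabggtb, a subunit of the enzyme that prenylates Rab proteins, was the only one called, lower in each sex, beside 5.76% of all tested genes called lower in females and 5.36% in males. It fell by 0.26 in females (edgeR adjusted p = 0.0477) and fell by 0.51 in males (edgeR adjusted p = 0.000827). The female call was lost whenever any of the 16 libraries was left out, with no filter on low counts, with only the groups compared and when male high fat replicates 2 and 3 were averaged. On both TPM scales 2 of the 15 were called higher and 0 lower in females, and in males DESeq2 called 2 lower. In females log2(TPM + 1) called 19.8% of all tested genes in either direction and log2(TPM + 0.1) 18.7%. The median of all genes moved by 0.15 and 0.22 on these scales. DESeq2 called 15.2% of all tested genes in males in either direction. By the edgeR fit of all 16 libraries the medians of the 15 were -0.11 in females and 0.04 in males. The next smallest p belonged to Nus1, of dolichol synthesis, in females (-0.26, edgeR adjusted p = 0.1004) and to Cox10, of haem A synthesis, in males (-0.37, edgeR adjusted p = 0.0601).

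Sterol synthesis in liver is known to vary over the day, and a clock gene differed between the diet groups. Nr1d1, a repressor with a strong daily rhythm that was picked after its values were seen, differed with diet by 1.79 ± 0.21 in females and -1.91 ± 0.22 in males on the log2 scale (edgeR adjusted p = 7.60e-05 and 5.68e-05). Its diet change thus had opposite signs in the sexes. Its part in the members' values was not tested.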

How the data were processed

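Poly(A) RNA libraries of whole liver (NEBNext Ultra, NovaSeq, per the labels' protocols) were processed with STAR and RSEM on GRCm39, per the submitters' processing notes. The authors deposited RSEM expected counts and TPM per gene for 16 libraries. 4.89% of the expected counts were not whole, and all were rounded before testing. Library totals were 22228115 to 41420589 counts, and p-values measure the spread between 4 mice per group.

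Genes were kept by edgeR's filterByExpr (14781 of 78317) and tested with edgeR 4.0.16 (R 4.3.3; TMM, robust quasi-likelihood fit, 1 mean per group over all 16 libraries, 12 residual degrees of freedom). P-values were adjusted by Benjamini-Hochberg over all tested genes, with a threshold of 0.05. CPM are TMM-scaled, and log2 CPM for correlations used a prior count of 2. The fitting was tested on simulated data. Ratios were compared by exact permutation. Alternatives were DESeq2 1.42.0, its size factors, no filter, limma 3.58.1 on log2(TPM + 1) and log2(TPM + 0.1), only the groups compared, a replicate block, male high fat replicates 2 and 3 averaged, Acat2 and Acat3 summed, and each library left out.

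The libraries were treated as unpaired. Named genes were the 9 members, their pathway neighbours, possible read-sharing partners and adjacent genes, the 5 genes most alike in level, and the 2 genes with the smallest p in each pathway list and sex. Some genes that this rule names, and a list that rests on them, are not reported here. The members and lists were chosen with earlier results of these data known. Shared 31-base stretches and exon overlaps were computed from GENCODE M21 (GRCm38), since no annotation of GRCm39 was used here. Gene coordinates are therefore given only for the RefSeq promoter windows. Symbols were found for 51487 genes, which hold 98.97% of the counts.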

Additional observations from a re-analysis of the deposited data

Results flagged for a closer look

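In 3 of 36 sets of 4 libraries (9 genes in 4 groups), 1 library lay far from the other 3, where chance alone gives about 1 in 20. Mvk in male high fat replicate 1 was at 7.92 CPM, against 4.96 to 5.30 in the other 3. Pmvk in male normal diet replicate 1 was at 22.2 CPM, against 15.34 to 15.98. Idi1 in female normal diet replicate 2 was at 289.7 CPM, against 559.8 to 610.4. The causes were not tested.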

How the results depend on the processing

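The number of members called stayed within 1.5 times its value under every alternative run. With single libraries left out it ran from 6 to 8 for diet in females, from 5 to 6 for diet in males, from 5 to 6 for sex on normal diet and from 2 to 3 for sex on high fat diet, and stayed at 0 for the interaction. Of all tested genes, these fits called 6.29% to 12.4%, 7.37% to 13.6%, 8.77% to 18.4%, 13.1% to 20.3% and 0.338% to 1.17% in either direction, in the same order. The log2 ratio of Fdft1 to Ggps1 then ran from -0.65 to -0.41 in females and from -0.65 to -0.43 in males. Without female normal diet replicate 2 the female value was -0.65 (exact permutation, adjusted p = 0.0286), past the threshold. With the replicate block the counts were 8 for diet in females, 5 for diet in males and 0 for the interaction, as without it. For sex on normal and on high fat diet they were 5 and 3, also as without it. In the same order, the block fit called 12.6%, 13.4%, 0.683%, 18.2% and 23.3% of all tested genes in either direction. Same-numbered libraries' deviations correlated between -0.16 and 0.18, and 6 of 16 libraries correlated best with their own number. The libraries were treated as unpaired, and whether libraries of the same number shared handling was not tested.

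Across 1116 alternative values of the members, 1062 kept direction and side of the threshold, 28 lost the call without changing sign, 9 gained it and 17 changed sign. Among the sign changes, the Acat2 diet change in females with Acat3 summed lost its call as well. With Acat2 and Acat3 summed, the Acat2 diet change turned to 0.11 in females and 0.12 in males. The Fdft1 interaction turned to 0.11 on log2(TPM + 1), 0.12 on log2(TPM + 0.1) and 0.02 with male high fat replicates 2 and 3 averaged, and the Ggps1 interaction to 0.07 and 0.08 on the TPM scales. Fdps on high fat diet, females minus males, turned to 0.02 on both TPM scales. With single libraries left out, the Fdft1 interaction ran from -0.19 to 0.04, Acat2 between the sexes on high fat diet from -0.06 to 0.19, and Idi1 from -0.20 to 0.41. None of these sign changes involved a called value except that of Acat2 in females. The cause was not tested, apart from the summing, in which Acat3 holds most of the reads. Low counts limit Mvd (38 to 495 reads per library) most.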
